A study of Drosophila melanogaster with 18 samples.

Results

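The genes described here encode the sarcomere and the machinery of muscle contraction in the fruit fly Drosophila melanogaster. They were chosen by name, as 34 gene symbols looked up in the symbol column of the deposited count tables, with actins and troponin C left out. Of these, 33 were found among 16747 entries. Msp-300, a giant nuclear anchor protein, was not counted because the tables spell the symbol Msp300. The 33 members comprise 9 genes of the thick filament and myosin, 9 of the thin filament, 8 of the Z disc and its elastic connections, 2 that cap actin filaments, 3 of calcium handling and energy supply, and 2 transcription factors. All 33 had reads in all 18 libraries and passed the filter on low counts, so none was lost before testing.

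A sarcomere is the repeating contractile unit of striated muscle, in which thick filaments of myosin pull on thin filaments of actin anchored at Z discs. Contraction starts when calcium released from the sarcoplasmic reticulum binds troponin C, and the troponin and tropomyosin complex then frees the thin filament for myosin. Flies carry several kinds of muscle: fibrillar indirect flight muscles, which are stretch activated and fill much of the thorax, and tubular muscles of the leg, jump, abdomen and gut. Most sarcomere genes are used by all of them, while a few such as fln are known for the flight muscle alone.

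RNA was sequenced from whole flies aged 5 days, in 6 groups of 3 libraries: F0, INT and NINT in males and in females. The F0 labels name 10 strains together. They are Canton-S, Oregon-R-C, Harwich, Wild_1A, BER_2 and DGRP-100, and the mutant strains w1118, flare3 (flr3), Oregon R flare3 (ORR, flr3) and multiple wing hairs (mwh). INT and NINT flies were taken at generation F12 and are labelled genetically heterogenous. The labels do not spell out INT and NINT, the series title concerns intelligence and longevity, and no treatment is given for any group. The number of flies in a library is not given, nor whether replicates came from separate cultures, so p-values may measure technical spread only. In whole-fly RNA, fewer muscle cells and less RNA per muscle cell cannot be told apart.

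Male libraries held 31.8 to 39.2 M counts and female libraries 31.6 to 58.3 M. The share of counts on ribosomal RNA entries moved with the group in females, at 5.94% to 7.36% for NINT, 10.4% to 23.2% for INT and 20.3% to 36.3% for F0. It was 1.84% to 8.80% among males. Levels below are counts per M counts (CPM) on the scaled library sizes of all 18 libraries. Within a sex, fold changes and overlap between groups use the scaling of that sex's 9 libraries. Comparisons give log2 fold changes with their standard error (SE). A gene was called when its Benjamini-Hochberg adjusted p, over all genes of the comparison, was under 0.05 in edgeR's quasi-likelihood test.

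Spread within groups was wide. F0 females 1 and 2 and INT female 3 stood apart: both F0 libraries lay above F0 female 3 in 31 of 33 members, and INT female 3 was the highest INT female in 31 of 33. F0 male 1 was the highest F0 male in 26 of 33. The median member was 3.65-fold higher in F0 female 1 than in F0 female 3, 2.42-fold higher in F0 female 2 than in F0 female 3, and 1.91-fold higher in INT female 3 than in INT female 1. In contrast, the highest NINT female exceeded the lowest by a median of 1.35-fold, and the spans within INT males and NINT males were 1.36-fold and 1.23-fold. Between the highest and lowest of the 18 libraries the median member varied 9.09-fold, 15 members varied more than 10-fold and 2, fln and Zasp67, more than 100-fold. Only 5 varied less than 3-fold, namely Lasp, Chd64, cpa, cpb and Mef2.

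**Figure D1:**
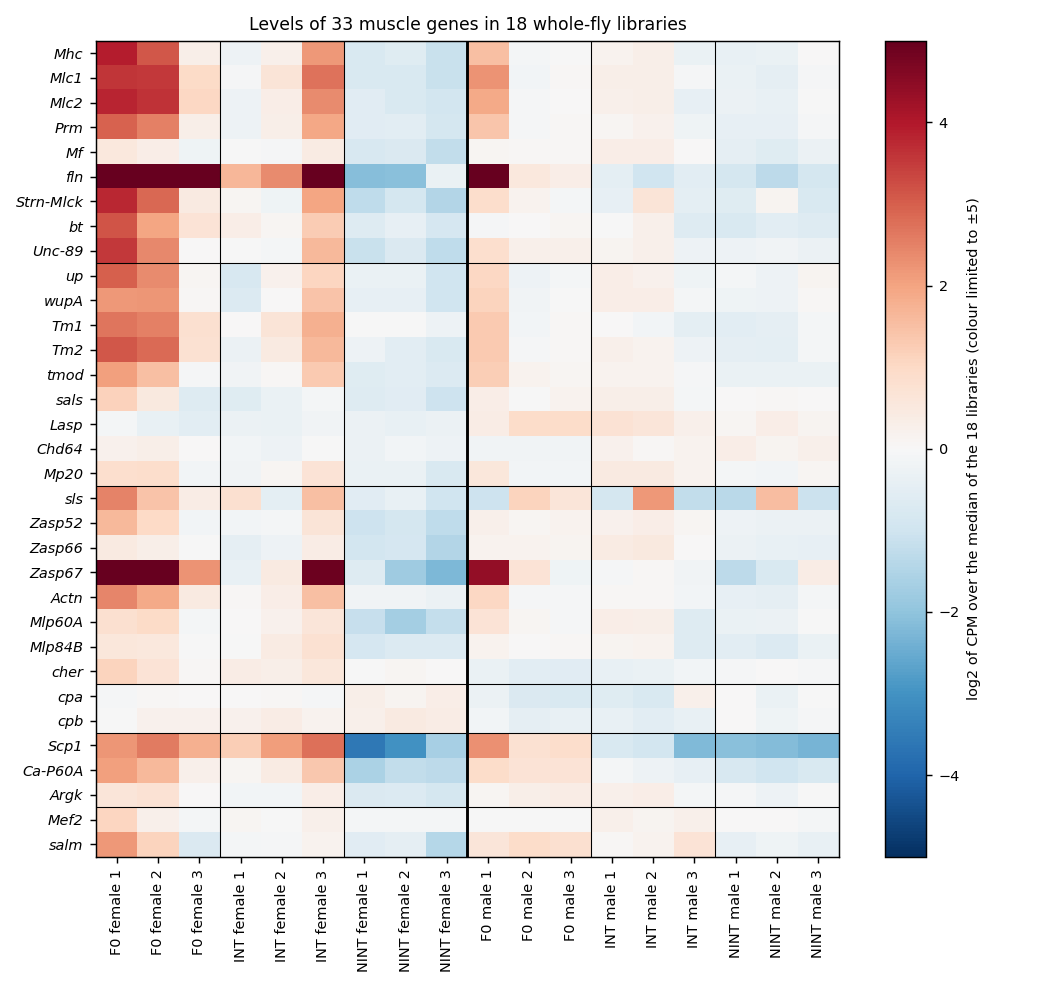
Heat map of the 33 members (rows, grouped by role) in the 18 libraries (columns), coloured by the log2 of the CPM over that gene's median of the 18 libraries and limited to ±5. F0 females 1 and 2, INT female 3 and F0 male 1 are high for most rows, and the lowest library is a NINT female in 26 of 33 rows.

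Genes outside the members showed the same libraries. For Act88F, the actin of the indirect flight muscles, F0 females 1 to 3 held 5299, 4835 and 325 CPM, the INT females 22.4, 70.1 and 1975 CPM and the NINT females 4.63 to 8.92 CPM. It was at 1205 CPM in F0 male 1 and at 8.39 and 9.99 CPM in the other F0 males. TpnC4, the troponin C of flight muscle, was at 432, 543 and 58.4 CPM in F0 females, 188 CPM in F0 male 1 and 2.47 and 3.48 CPM in the other F0 males. The libraries high in both genes were therefore F0 females 1 and 2, INT female 3 and F0 male 1, in that order for Act88F.

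Markers of other tissues moved with some of these libraries. Fbp1, a receptor for storage proteins of the larval fat body, was at 59.7 and 55.3 CPM in F0 females 1 and 2 and at 58.3 CPM in F0 male 1. It was at 0 to 0.697 CPM in the other libraries, INT female 3 included. The 5 fat body markers together did not follow these libraries: they summed to 860 to 1933 CPM in F0 females, 1330 to 1561 CPM in INT females and 1316 to 1931 CPM in NINT females, with up to 1 of the 5 at 0, and F0 male 1 was the lowest F0 male at 1228 CPM. Cpr62Bc, a cuticle protein gene, was at 345 and 274 CPM in F0 females 1 and 2, 92.9 CPM in INT female 3 and 108 CPM in F0 male 1, and at no more than 14.3 CPM elsewhere. Summed over their lists, 6 cuticle markers were at 89.1 to 482 CPM in F0 females, 56.6 to 167 CPM in INT females and 17.3 to 20.2 CPM in NINT females, with up to 1 of the 6 at 0 in a library of INT or NINT. The 10 ovary and eggshell markers summed to 8092 to 14985 CPM in F0 females, 18171 to 18752 CPM in INT females and 21974 to 23804 CPM in NINT females, with none at 0. The 6 neuron markers summed to 328 to 1025 CPM in F0 females, 348 to 486 CPM in INT females and 234 to 299 CPM in NINT females, with none at 0. Eye and midgut markers, 5 genes each with none at 0, were not higher in F0 females 1 and 2. Eye sums were 1422, 1398 and 1512 CPM in F0 females 1 to 3. They were 1586 to 1939 CPM in INT and 1849 to 2551 CPM in NINT females. Midgut sums were 5826, 7140 and 9195 CPM, 5923 to 6628 CPM and 5103 to 6002 CPM in the same groups. The part of these tissues, and of the ribosomal RNA share, in the muscle results that follow was not tested.

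Yolk protein and eggshell RNA also differed among males. The 10 ovary and eggshell markers summed to 1371, 682 and 16.2 CPM in F0 males 1 to 3, to 19.6 to 22.1 CPM in INT males, where up to 2 of the 10 were at 0, and to 129, 765 and 1047 CPM in NINT males 1 to 3. Comparisons of males are therefore also given without F0 males 1 and 2 and NINT males 2 and 3, which leaves a lone F0 and a lone NINT library that are assumed to vary like the INT group. The 7 testis markers summed to 933 to 1657 CPM in F0 males, 351 to 1196 CPM in INT males and 517 to 753 CPM in NINT males, with none at 0. The 6 cuticle markers summed to 144 to 229, 36.5 to 70.8 and 62.5 to 72.0 CPM in the same groups, also with none at 0. The lowest testis and cuticle sums of the males were both in INT male 3, and the part of these tissues in the male results was not tested.

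The genes with the highest level per length differed between groups. In F0 females Mlc2, the myosin regulatory light chain, was highest at 3384 ± 2318 CPM per kilobase of exon (SD, n = 3), followed by Mlc1, the alkali light chain, at 2053 ± 1375 and up, the troponin T gene, at 1777 ± 1304. These neighbours differed by less than their spread. In NINT females Argk, the arginine kinase that regenerates ATP from phosphoarginine, led at 338 ± 22.9 CPM per kilobase, ahead of wupA, the troponin I gene, at 311 ± 68.4 and up at 260 ± 61.4, again within their spread. The same 3 genes led in NINT males, with Argk at 536 ± 49.5, wupA at 426 ± 54.4 and up at 359 ± 47.7 CPM per kilobase. The lowest level per length was that of salm in F0 and INT females, at 3.25 and 1.36 CPM per kilobase, and that of Zasp67 in NINT females, at 0.151. Exon lengths are unions over all transcripts, which understates genes with many alternative exons such as Mhc.

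The comparison of NINT with F0 females asks how flies of generation F12 differed from those of F0, and it held the most called members of the 6 comparisons of lines within a sex. edgeR called 28 of 33 members lower in NINT and 0 higher, where 22.5% of all genes tested were called in either direction and 14.9% were called lower. The median log2 fold change was -2.07 over the members and -0.01 over all genes. In 27 members every NINT female lay below every F0 female, against 21% of all genes, and in 2 every NINT female lay above, against 18.1%. All 9 thick filament genes, 8 of 9 thin filament genes, 7 of 8 Z disc genes and all 3 calcium and energy genes fell.

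Among calcium and energy genes, Scp1 had the smallest p. It encodes a sarcoplasmic calcium-binding protein, and lies at 2R:2932595-2968052 (dm6). Scp1 was at 1684, 2234 and 1242 CPM in F0 females and at 30.2, 44.4 and 116 CPM in NINT females. The groups were far apart, and F0 female 3, which was low for most members, held more than 10 times the highest NINT level. Scp1 fell 27.3-fold (log2 fold change -4.77, SE 0.62, edgeR adjusted p = 0.00344). Ca-P60A, the calcium pump that returns calcium to the sarcoplasmic reticulum (2R:23925077-23935884), was at 4739, 3542 and 1345 CPM in F0 females and at 378, 489 and 465 CPM in NINT females. It fell 7.28-fold (SE 0.49 on the log2 scale, adjusted p = 0.00831). Argk fell 2.38-fold, from 3035, 3335 and 2025 CPM to 1216, 1244 and 1093 CPM (adjusted p = 0.0113), the smallest change of the 3.

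Thick filament genes had the lowest median of the roles, at -3.89 on the log2 scale. Mhc, the single gene for muscle myosin heavy chain (2L:16766566-16788766), was at 26177, 14620 and 2081 CPM in F0 females and at 1005, 1114 and 803 CPM in NINT females. Every F0 library was higher, but the first of them exceeded the third 12.6-fold. Mhc fell 14.8-fold (SE 0.93 on the log2 scale, adjusted p = 0.0236). The light chains Mlc1 and Mlc2 fell 15.6-fold and 15.9-fold, Prm, which encodes the thick filament core protein paramyosin, fell 7.74-fold and Mf, the myofilin gene, fell 2.24-fold.

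Flightin showed the widest range of all members. fln (3L:19989551-19991220) encodes a thick filament protein of the flight muscle and was at 1834, 1802 and 146 CPM in F0 females. In NINT females it was at 0.849, 0.877 and 2.94 CPM. It fell by 9.67 on the log2 scale with an SE of 2.06 (adjusted p = 0.0174), so the size of the change is known only loosely. Strn-Mlck, the gene of the large flight muscle protein stretchin, fell 16.8-fold, Unc-89, which encodes the M line protein obscurin, fell 12.2-fold, and bt, the projectin gene, whose protein ties thick filaments to the Z disc, fell 7.35-fold.

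Thin filament genes had a median of -2.03 on the log2 scale. The tropomyosin genes Tm2 and Tm1 fell 8.21-fold and 4.97-fold (adjusted p = 0.0174 and 0.0235). Other called thin filament genes, up, wupA, tmod, Mp20, Chd64 and sals, fell by between 0.41 and 2.78 on the log2 scale. Chd64, a calponin-like gene, moved least of the 28 called genes, from 150, 159 and 135 CPM in F0 to 108, 119 and 111 CPM in NINT. Lasp, a LIM and SH3 domain gene, had a log2 fold change of 0.00 (SE 0.13), at 90.9, 75.5 and 66.7 CPM in F0 and 80.2, 75.2 and 80.0 CPM in NINT.

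At the Z disc, Mlp60A, a muscle LIM protein gene (2R:24074602-24078223), was at 583, 645 and 317 CPM in F0 females and at 150, 105 and 149 CPM in NINT females. Even F0 female 3 lay above the NINT females. Mlp60A fell 3.86-fold (SE 0.29 on the log2 scale, adjusted p = 0.00543), and its relative Mlp84B fell 2.18-fold (adjusted p = 0.016). The PDZ and LIM domain genes Zasp52, Zasp66 and Zasp67 fell 4.20-fold, 2.47-fold and 132-fold, Actn, the alpha-actinin gene, fell 4.09-fold and sls, the gene of the titin-like Sallimus and kettin, fell 4.89-fold. Zasp67 was at 107, 81.3 and 6.04 CPM in F0 females and at 0.83, 0.376 and 0.269 CPM in NINT females, so its fold rests on low NINT levels. The filamin gene cher was not called (log2 fold change -0.66, adjusted p = 0.0687).

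The 5 members not called included both genes of capping protein, which binds the barbed ends of actin filaments in all cells. cpa had a log2 fold change of 0.23 and cpb one of 0.20 (adjusted p = 0.135 and 0.25), and both were the genes in which every NINT female lay above every F0 female. Of the transcription factors, salm, which specifies the fibrillar flight muscle, fell 4.07-fold (adjusted p = 0.0412), and Mef2, the general muscle regulator, had a log2 fold change of -0.63 (adjusted p = 0.103).

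Without F0 females 1 and 2 and INT female 3, where a single F0 female is assumed to vary like the other groups, 14 of 33 members were called lower (6.35% of all genes called) with a median log2 fold change of -0.89. Scp1 then had a log2 fold change of -4.29, Ca-P60A -1.60, Mlp60A -1.23, Mhc -1.10 and fln -6.53, each still called, while Mlp84B (-0.71, adjusted p = 0.0602) and salm (-0.02, adjusted p = 0.98) were not. The number called was 15 without F0 female 1, 6 without F0 female 2 and 30 without F0 female 3. The shares of all genes called were 12.4%, 4.74% and 51.1%. Without NINT females 1, 2 and 3 in turn, 3, 5 and 3 members were called (4.4%, 4.88% and 4.35% of all genes). Scp1, Ca-P60A and Mlp60A were called under each of 14 alternatives tried.

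**Figure D2:**
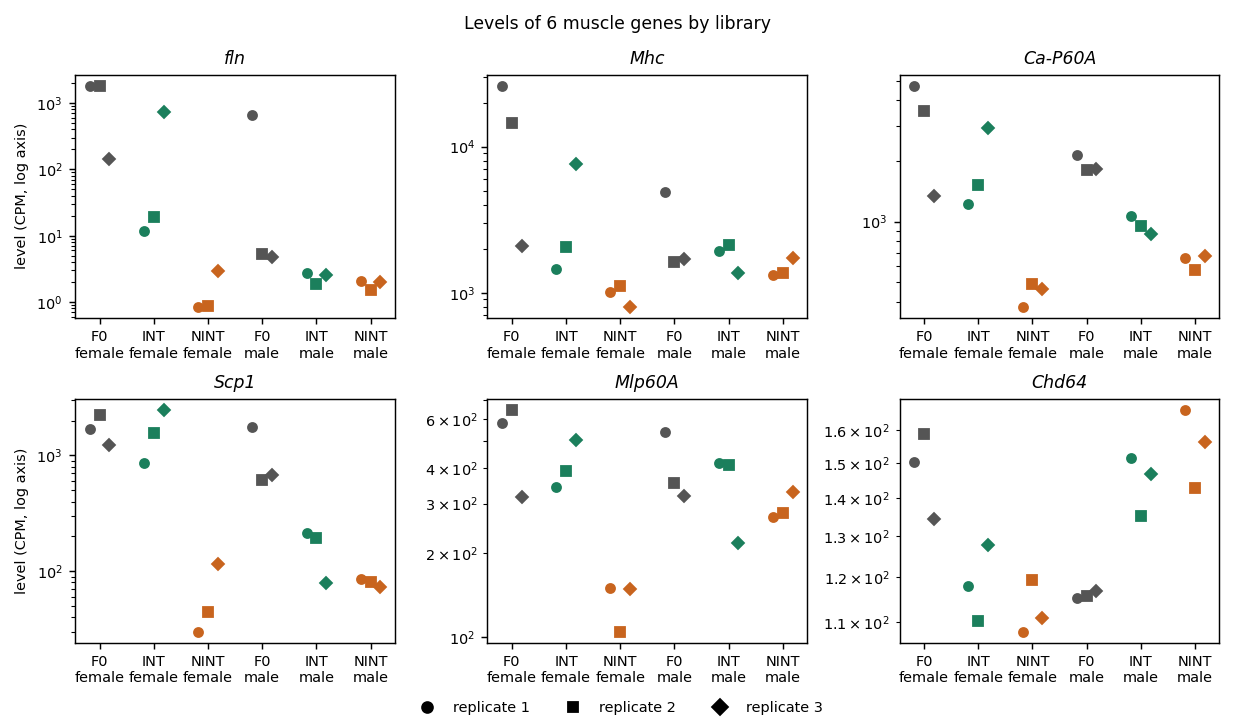
Levels of fln, Mhc, Ca-P60A, Scp1, Mlp60A and Chd64 in CPM on log axes, 1 point per library in the 6 groups, with marker shape giving the replicate number. fln spans from 0.849 to 1834 CPM, whereas Chd64 spans only from 108 to 166 CPM.

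INT and NINT females were of the same generation. Most muscle genes had higher values in INT: 31 of 33 members had a log2 fold change above 0 (51.2% of all genes), with a median of 1.15 against 0.01 over all genes. In 24 members every INT female was above every NINT female, against 19% of all genes, and in 1, cpa, every INT female was below, against 18.7%. edgeR called 2 members, both higher in INT, where 0.995% of all genes were called in either direction and 0.888% were called higher. These 2 were Scp1 and Mlp60A.

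Scp1 was at 866, 1566 and 2455 CPM in INT females, against 30.2, 44.4 and 116 CPM in NINT females. It rose 25.8-fold (log2 fold change 4.69, SE 0.61, edgeR adjusted p = 0.0245). The lowest INT female lay far above the highest NINT female, and INT female 1 was the lowest of its group. Mlp60A was at 344, 391 and 506 CPM in INT females and at 150, 105 and 149 CPM in NINT females, and rose 3.09-fold (SE 0.29 on the log2 scale, adjusted p = 0.0349).

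Ca-P60A, at 1218, 1523 and 2903 CPM in INT and 378 to 489 CPM in NINT females, did not pass the test (log2 fold change 2.09, SE 0.47, adjusted p = 0.0898). All 3 calcium and energy genes had groups that did not overlap. The 9 thick filament genes also had groups that did not overlap, with log2 fold changes from 1.04 to 7.34, and none of the 9 was called. Mhc was at 1450, 2052 and 7657 CPM in INT females, each above the 803 to 1114 CPM of NINT females (log2 fold change 1.94, adjusted p = 0.33). fln was at 11.8, 19.4 and 725 CPM in INT females and at 0.849 to 2.94 CPM in NINT females (log2 fold change 7.34, SE 1.88, adjusted p = 0.122). The level of INT female 3 stood far above those of INT females 1 and 2.

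Other members without overlap, in order of their log2 fold change, were Zasp67 (4.82), Mlc1 (2.49), Strn-Mlck (2.15), Mlc2 (2.01), Unc-89 (1.76), Prm (1.61), bt (1.27), Zasp52 (1.25), Mlp84B (1.15), tmod (1.15) and Tm1 (1.10). They continued with Mf (1.04), Actn (0.98), Zasp66 (0.97) and Argk (0.81), with adjusted p from 0.0639 for Mlp84B to 0.385 for Actn. The other 4, salm, Mp20, cher and Mef2, had log2 fold changes from 0.22 to 0.77. The thin filament was the least separated of the large classes, with 3 of 9 genes without overlap and a median of 0.89. cpa and cpb had log2 fold changes of -0.24 and -0.11, and Lasp and Chd64 of 0.05 and 0.08. An unadjusted p under 0.05 was reached by 19 of 33 members, against 15% of all genes.

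Leaving out F0 females 1 and 2 and INT female 3, which stood apart in the members' own levels, lowered the median to 0.68. The F0 females are not part of this contrast and enter it only through the filter, scaling and shared spread of the fit. Scp1 then had a log2 fold change of 4.26, Mlp60A 1.45 and fln 3.31. Without INT females 1, 2 and 3 in turn, 1, 0 and 1 members were called (0.112%, 0.0371% and 1.14% of all genes). Without NINT females 1, 2 and 3 in turn, 0, 0 and 1 were called (0.0301%, 0.0596% and 0.142%). Over 14 alternatives Scp1 was called in 10 and Mlp60A in 7, with adjusted p up to 0.13 and 0.164.

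**Figure D3:**
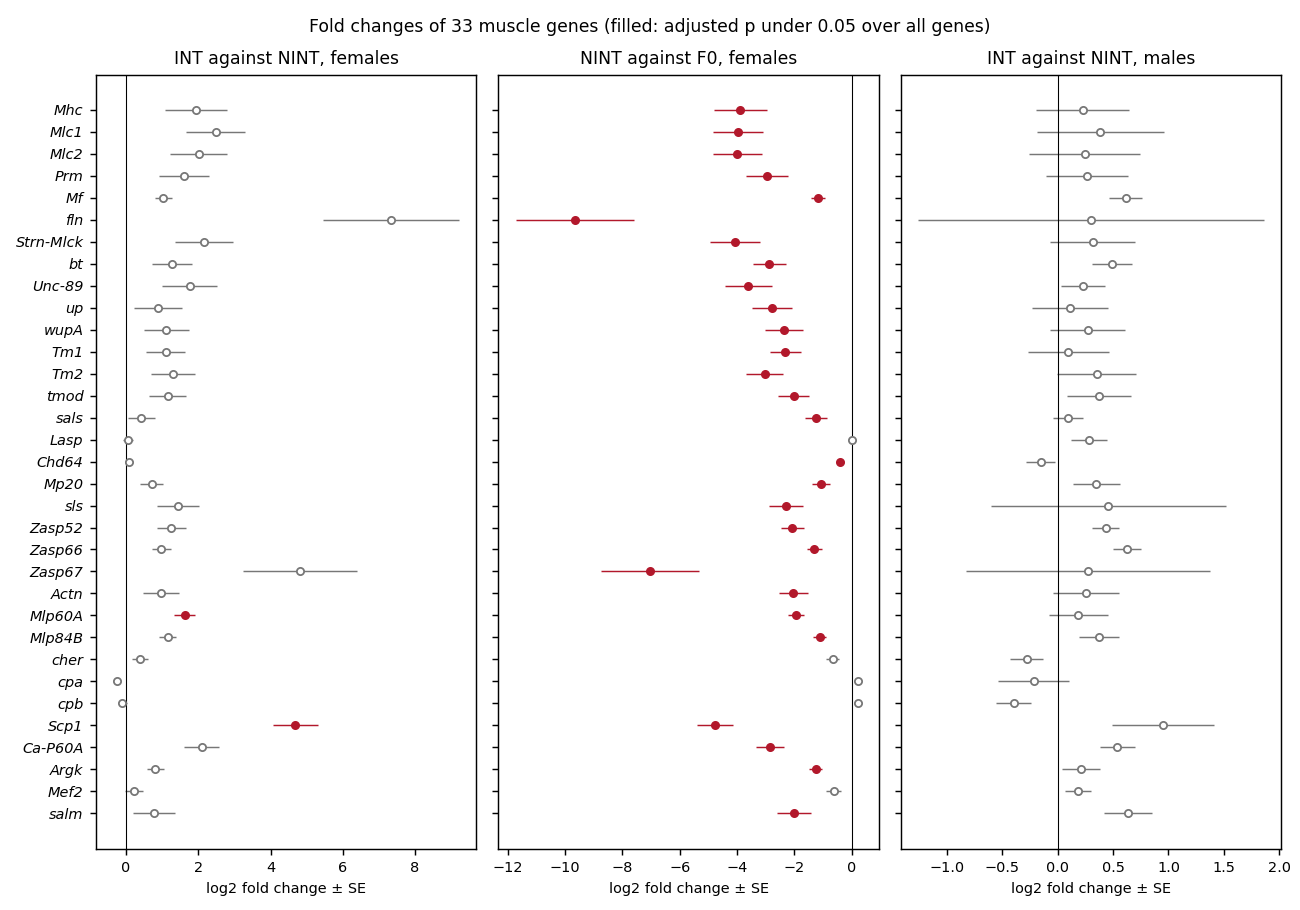
Log2 fold changes (points) with SE (bars) of the 33 members for INT against NINT in females, NINT against F0 in females and INT against NINT in males, with filled points for an edgeR adjusted p under 0.05. Scp1 and Mlp60A are the 2 filled points of the first panel, 28 are filled in the second and 0 in the third.

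INT and F0 females differed in none of the 33 members by edgeR, where 2.12% of all genes were called. An unadjusted p under 0.05 was reached by 9 members, against 17.7% of all genes. DESeq2 called 3 members, each lower in INT, and 7.46% of all genes. The median log2 fold change was -0.85, with 3 members above 0 (49.5% of all genes), and Chd64, at 118, 110 and 128 CPM in INT, was the only gene of the 33 whose groups did not overlap (8.34% of all genes lay lower without overlap). Scp1 had a log2 fold change of -0.08 (SE 0.53), Mlp60A -0.32 (SE 0.28), Mhc -1.94 (SE 0.85) and fln -2.32 (SE 1.48), none of them called (adjusted p = 0.939, 0.53, 0.279 and 0.404). The median was -0.07 without F0 females 1 and 2 and INT female 3. Without F0 female 3, 19 members were called lower, where 32.2% of all genes were called. Without INT female 3, 1 was called lower, where 1.97% of all genes were called. The NINT and F0, INT and NINT, and INT and F0 contrasts share libraries, so they are not independent.

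In males few members passed the test between lines. For INT against NINT, edgeR called 0 of 33 members, where 0.0399% of all genes were called, and 7 members had an unadjusted p under 0.05 (16.4% of all genes). DESeq2 called 4 members, each higher in INT, and 6.01% of all genes. Still, 29 members had log2 fold changes above 0 (51% of all genes), with a median of 0.28, and 12 lay higher in INT without overlap, against 9.66% of all genes. By size these 12 were salm (0.63), Zasp66 (0.63), Mf (0.61), Ca-P60A (0.54), bt (0.49), Zasp52 (0.44), Mlc1 (0.39), tmod (0.38), Mp20 (0.35), Lasp (0.28), Actn (0.26) and Unc-89 (0.23). cpb lay lower without overlap (-0.39), as did 10.8% of all genes. The count of 12 depends on the scaling: on the printed levels 8 members lay higher without overlap, against 10.5% of all genes, and 2, cpb and cher, lower, against 9.07%. Of the 12, Mlc1, bt, Unc-89, Lasp and Actn overlapped there, and Mef2 was added.

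Levels of Scp1, Mlp60A, Mhc and fln overlapped between INT and NINT males. Scp1 was at 215, 195 and 78.7 CPM in INT males and at 85.1, 80.5 and 73.3 CPM in NINT males, so INT male 3 fell within the NINT range (log2 fold change 0.95, adjusted p = 0.35). Mlp60A was at 420, 412 and 217 CPM in INT males and at 268, 277 and 329 CPM in NINT males. Mhc was at 1928, 2119 and 1362 CPM in INT males and at 1322, 1376 and 1719 CPM in NINT males, and fln at 1.87 to 2.70 CPM and 1.53 to 2.05 CPM. INT male 3 was the lowest INT male for each of these but fln, and 8 members, 6 higher and 2 lower in INT, were called without it, where 26.1% of all genes were called.

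Against the founders, Scp1 and Ca-P60A were lower in both later lines of males. Scp1 was at 1772, 616 and 676 CPM in F0 males, against 78.7 to 215 CPM in INT and 73.3 to 85.1 CPM in NINT. It fell 6.21-fold in INT (log2 fold change -2.63, SE 0.48, adjusted p = 0.036) and further in NINT (log2 fold change -3.58, SE 0.50, adjusted p = 0.0111). Ca-P60A was at 2149, 1809 and 1835 CPM in F0 males, 1067, 953 and 864 CPM in INT males and 659, 577 and 673 CPM in NINT males. It fell 1.94-fold in INT (adjusted p = 0.0259) and 2.81-fold in NINT (adjusted p = 0.00441), with tight replicates and no overlap between any of the 3 groups.

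These were the 2 members called in INT against F0 males, where 1.82% of all genes were called in either direction and 0.678% lower. In NINT against F0 males a further member, salm, was called, at 12.4, 15.5 and 14.2 CPM in F0 and 6.16, 7.04 and 6.30 CPM in NINT (1.99-fold lower, adjusted p = 0.0405), and 5.04% of all genes were called, 2.51% lower. The median log2 fold change of the members was -0.20 and -0.49. fln, at 652, 5.33 and 4.76 CPM in F0 males, was lower without overlap in both lines (log2 fold changes -6.50 and -6.80, adjusted p = 0.123 and 0.0734), with F0 male 1 far above the other F0 males. In NINT males 12 members lay lower without overlap, against 24.1% of all genes, and 4 lay higher (cpa, cher, Chd64 and Mef2, log2 fold changes 0.60, 0.55, 0.54 and 0.12), against 24.3%. In INT males 3 lay lower, against 11.7%, and 4 higher (Chd64, Mef2, Mf and Zasp66, 0.38, 0.30, 0.23 and 0.21), against 10.9%. On the printed levels cpa and Mef2 overlapped in NINT against F0 males, which left 2 higher, against 18.8% of all genes, and 16 lay lower, against 29.9%. In INT against F0 males Mf and Zasp66 overlapped, which left 2 higher, against 9.24%. In the fit of the 18 libraries Ca-P60A in INT and salm in NINT kept their direction and were not called (edgeR adjusted p = 0.19 and 0.152), and all genes shifted by -0.11 at the median in NINT against F0 males.

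Mhc had log2 fold changes of -0.57 in INT and -0.80 in NINT males against F0, and Mlp60A of -0.19 and -0.37, and neither gene was called. Without F0 males 1 and 2 and NINT males 2 and 3, edgeR called 0 members in either comparison with F0 and 0% of all genes. Scp1 then had log2 fold changes of -2.03 and -2.84 (adjusted p = 0.906 and 0.706) and Ca-P60A of -0.88 and -1.32 (adjusted p = 0.906 and 0.706). In INT against F0 the number called was 0 without F0 males 1, 2 or 3 and without INT males 1 or 2. It was 3 without INT male 3, where 3.17% of all genes were called. In NINT against F0 the number called was 5 without F0 male 1 (6.09% of all genes). It was 1 without each NINT male (0.764%, 1.05% and 1.02% of all genes).

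Whether the INT and NINT difference depended on sex was tested as an interaction over the 18 libraries. edgeR called 0 of 33 members, where 0.268% of all genes were called, and 6 members had an unadjusted p under 0.05 (12.2% of all genes). DESeq2 called 2 members and 3.3% of all genes. The INT minus NINT difference was more positive in females for 30 members (53.7% of all genes), with a median of 0.71 on the log2 scale. Scp1 had the smallest p, with a difference of 3.65 (SE 0.78, adjusted p = 0.0665), followed by Mlp60A with 1.35 (SE 0.43, adjusted p = 0.201). The median was 0.22 without F0 females 1 and 2 and INT female 3, with Scp1 at 3.18. The number called was 1 without INT male 3 and 1 without NINT female 3. Over the fits with 1 library left out, 0.0324% to 4.55% of all genes were called.

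Males and females of each line differed in most genes of the fly, so counts of members are read against a high background. The tables were deposited 1 per sex, and a difference in processing between them cannot be told apart from sex. In F0, 1 member was called higher in males and 18 lower, where 61.7% of all genes were called, 32.8% higher and 28.9% lower, with a median of -0.83 against 0.05 over all genes. In INT, 2 were called higher and 7 lower (69.6% of all genes called, 39% higher and 30.5% lower), with a median of -0.48 against 0.20. In NINT, 7 were called higher in males and 1 lower (73.5% of all genes called, 43.3% higher and 30.2% lower), with a median of 0.46 against 0.40. The members' median thus lay below that of all genes in F0 and INT, and near it in NINT.

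The gene higher in F0 males was Lasp, at 126, 184 and 184 CPM against 66.7 to 90.9 CPM in females (2.12-fold, adjusted p = 5.54e-05). Lasp was called higher in males of INT and NINT too, by 0.80 and 0.50 on the log2 scale. cpb was called lower in males of all 3 lines, by log2 fold changes of -0.45, -0.67 and -0.44, and cpa had log2 fold changes of -0.60, -0.31 and -0.36, of which the one in F0 was called. The level of cpa stayed at 47.1 to 51.3 CPM in all F0 and INT females, the libraries high in fln included.

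Other genes lower in F0 males, by smallest p, were cher, bt, cpb, Strn-Mlck, Tm2, Unc-89, Tm1, up, Chd64, Mhc, Actn, Mlc2, cpa, Prm, Zasp52, Mef2, Mlc1 and wupA, with log2 fold changes from -2.50 for Strn-Mlck to -0.35 for Chd64. Of the 18, cher, bt, cpb, Chd64 and cpa had groups that did not overlap, and Lasp lay higher without overlap. Over all genes tested, called or not, 27.2% lay lower and 35.8% higher without overlap. These shares are not over called genes, so they do not set a background for the 18. Leaving out F0 females 1 and 2 and F0 male 1 gave a median of -0.28, against 0.19 over all genes. Leaving out F0 females 1 and 2 and INT female 3 gave a median of 0.24, against 0.27 over all genes. Mhc was then at 0.41 and fln at 0.65. Both of these fits rest on a lone F0 female. Against 19 with all libraries (61.7% of all genes), 10, 13 and 25 were called without F0 females 1, 2 and 3 in turn (62.9%, 57.2% and 59.7%). Without F0 males 1, 2 and 3 in turn, 23, 8 and 10 were called (59.6%, 53.5% and 52.8%). Without F0 males 1 and 2 and NINT males 2 and 3, which leaves a lone F0 male, the median was -1.28, against 0.01 over all genes.

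In INT the genes lower in males were Scp1 (log2 fold change -3.32, adjusted p = 0.00014), cpb, cher, fln (-6.72), Ca-P60A (-0.97), Zasp67 (-3.48) and Tm1 (-1.20), and Lasp and Chd64 (0.28) were higher. Scp1 was at 866 to 2455 CPM in INT females and 78.7 to 215 CPM in INT males. It kept its call without the 3 female libraries that stood apart (-2.87, adjusted p = 0.00141), whereas fln lost it (-2.64, adjusted p = 0.139). In that fit the median was 0.09 over the members and 0.32 over all genes, and Mhc turned from -1.04 to 0.09. With RLE scaling in place of TMM the INT split was 3 higher and 6 lower, where 69.7% of all genes were called. The median of all genes moved by 0.11.

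In NINT the genes higher in males were Chd64, Mlp60A, Argk, Zasp66, Lasp, sals and Zasp52. Mlp60A was at 268, 277 and 329 CPM in males and 105 to 150 CPM in females (log2 fold change 1.11, SE 0.31, adjusted p = 0.00427). Argk was at 1957, 1678 and 1997 CPM in males and 1093 to 1244 CPM in females (0.66, adjusted p = 0.0102). In all, 22 members lay higher in NINT males without overlap, against 49.1% of all genes, and 2, cpa and cpb, lay lower, against 34.7%. Scp1, at 73.3 to 85.1 CPM in males and 30.2 to 116 CPM in females, overlapped. Without NINT males 2 and 3 and F0 males 1 and 2, which leaves a lone NINT male, the median was 0.43, against 0.43 over all genes. With 1 library left out 5 to 7 members were called, where 66.1% to 69.5% of all genes were called. The 5 were without NINT female 3.

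The sex difference itself was set against line in an interaction added after the data were seen. In NINT against F0 6 members were called, each with a more positive male-female difference in NINT, where 8.15% of all genes were called. Leaving out F0 females 1 and 2, INT female 3 and F0 male 1, which stood apart in the members' own levels, leaves a lone F0 female. Calls from that fit are therefore not given. The median of the members went from 1.30 to 0.58, Strn-Mlck from 3.32 to 1.27 and Zasp52 from 1.61 to 0.57 on the log2 scale. In contrast, fln went from 2.78 to 5.17 and Lasp from -0.59 to -0.91. In INT against F0 0 members were called, where 0.555% of all genes were called.

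**Figure D4:**
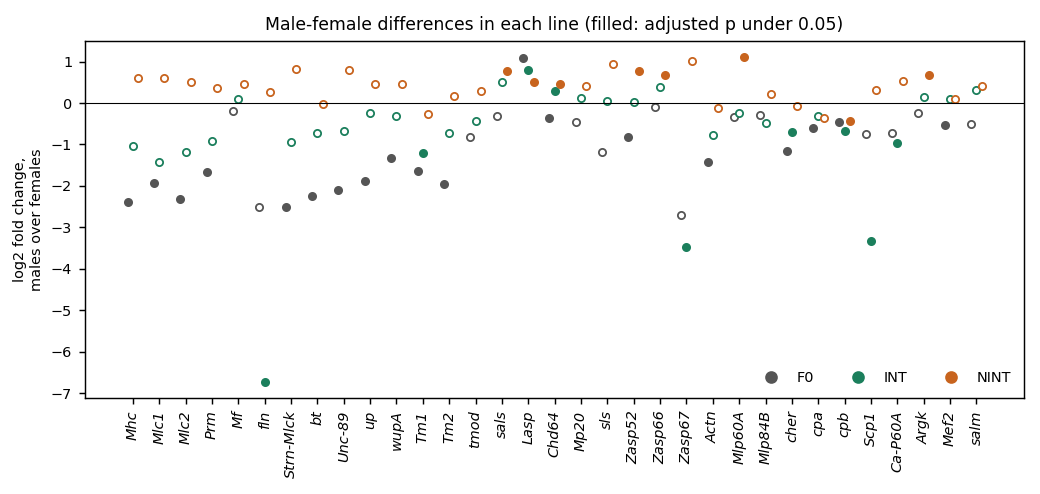
Log2 fold change of males over females for each of the 33 members in F0, INT and NINT, with filled points for an edgeR adjusted p under 0.05. Most F0 points lie below 0 and most NINT points above 0, while Lasp lies above 0 and cpb below 0 in all 3 lines.

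Within INT males and within NINT males, sls varied more between libraries than any other member. sls, which spans 3L:2039681-2115611, was at 676, 2964 and 2121 CPM in F0 males, 753, 6209 and 592 CPM in INT males and 541, 3997 and 647 CPM in NINT males. The highest INT male thus exceeded the lowest 10.5-fold, whereas the median member varied 1.36-fold there. The highest male libraries for sls were INT male 2, NINT male 2 and F0 males 2 and 3. In these 4 libraries fln was at 1.53 to 5.33 CPM, so they were not the ones high in flight muscle genes.

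The 7SL RNA, the RNA of the signal recognition particle, was high in the same male libraries, an observation made after the values were seen. Its entry CR32864 was at 449, 3759 and 5783 CPM in F0 males, 88.4, 6850 and 516 CPM in INT males and 223, 20807 and 454 CPM in NINT males. Among females it was highest in INT female 1, at 3561 CPM, where sls was at 2428 CPM against 986 CPM in INT female 2. In F0 female 1, where sls was at 7624 CPM, 7SL RNA was at 438 CPM, and there sls ranked the F0 females in the order of Mhc. Strn-Mlck was also highest in INT male 2, at 355 CPM against 172 and 162 CPM, and in NINT male 2, at 248 CPM against 149 and 132 CPM. bt was highest in the same libraries, at 592 CPM in INT male 2 against 495 and 320 CPM, and at 343 CPM in NINT male 2 against 294 and 315 CPM. The part of 7SL RNA or of library preparation in the sls level was not tested, and the comparisons of sls between male lines had SEs of 1.06 on the log2 scale.

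**Figure D5:**
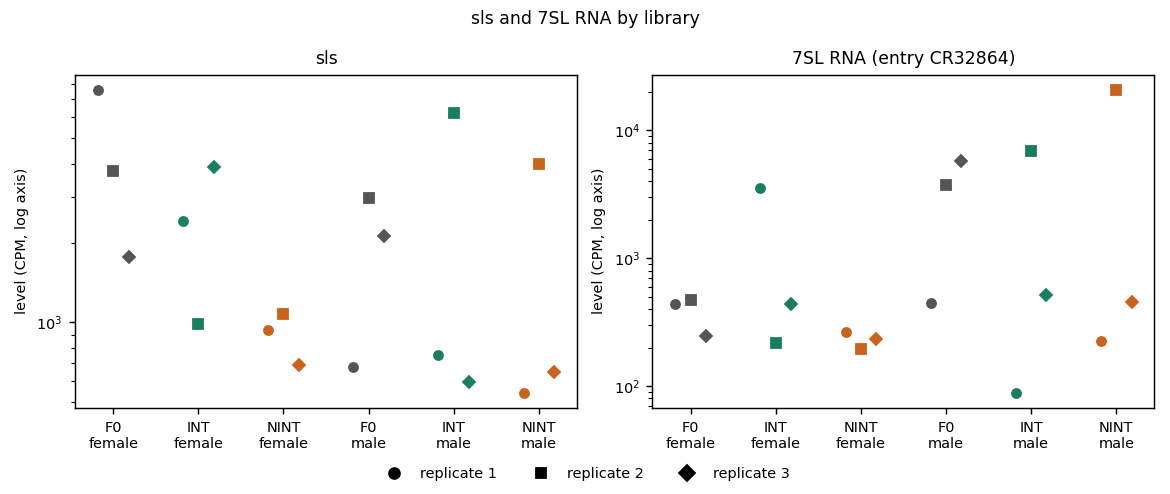
Levels of sls and of the 7SL RNA entry CR32864 in CPM on log axes, 1 point per library in the 6 groups. The 4 male libraries with sls at 2121 CPM or more are those with 7SL RNA at 3759 CPM or more.

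In NINT against F0 females the lists of calcium channel and membrane, attachment, assembly and regulator genes had medians nearer 0 than the -2.07 of the members. Of 8 genes of calcium channels and membrane attachment, 4 were called lower in NINT than F0 females: RyR, the calcium release channel of the sarcoplasmic reticulum (log2 fold change -2.81), the calcium channel subunit genes Ca-alpha1D (-1.55) and Ca-beta (-1.44), and Amph, the amphiphysin gene of the T tubules (-0.64). The list's median was -0.69. Of 9 attachment genes 1 was called, the integrin gene if (-1.19), with a median of -0.37, and of 5 assembly genes 1, the formin gene Fhos (-1.59), with a median of -0.10. Of 9 regulators 3 were called lower, vg (-1.62), mbl (-1.80) and hth (-1.41), which act in flight muscle development or muscle splicing, and the median was -0.64. Over all genes 22.5% were called, 14.9% lower. The calcium and membrane genes summed to 1748, 1048 and 555 CPM in F0 females and 426 to 522 CPM in NINT females, so F0 female 3 lay near the NINT range. The attachment genes summed to 1461, 917 and 597 CPM in F0 females and 620 to 715 CPM in NINT females, so F0 female 3 lay below every NINT female. Without F0 females 1 and 2 and INT female 3, 0 genes of the 4 lists were called by edgeR, where 6.35% of all genes were called. The medians were then -0.14, 0.16, 0.26 and -0.06 in the order above, RyR was at -0.82 (adjusted p = 0.0812) and if at -0.01 (adjusted p = 0.984).

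In INT against NINT females 0 genes of these 4 lists were called, with medians of 0.54 for calcium and membrane, 0.04 for attachment, -0.19 for assembly and 0.24 for regulators. An unadjusted p under 0.05 was reached by 3 of 8, 0 of 9, 2 of 5 and 1 of 9 in the same order, against 15% of all genes, and DESeq2 called 1 gene of the 4 lists, unc-45, lower in INT. Without F0 females 1 and 2 and INT female 3, RyR (0.82), Fhos (0.90) and hth (0.62) were called higher in INT, where 6.14% of all genes were called. In males SclB, which encodes a small peptide that inhibits the calcium pump (0.87 in INT against F0), and Fhos (-0.69 in NINT against F0) were called, and none in INT against NINT. The 14 cytoskeletal genes used outside muscle had medians of -0.09 and -0.03 in INT against NINT and NINT against F0 females, with dia (0.37 in NINT against F0) the 1 gene called, and 0 called in NINT against F0 without those 3 females. The medians of the muscle members in the same comparisons were 1.15 and -2.07.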

How the data were processed

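Gene expression was measured by RNA-seq in 18 whole-fly libraries. The deposited tables, split by sex, held whole-number read counts per gene with no normalisation by the authors. The submitters' processing notes give dm6 as the build and list DESeq2 with no version. The aligner, counter and strandedness used in counting are not stated in the sources used here. Overlapping genes and close copies may share reads. Per the labels, the kit was SMARTer Stranded and RNA came from Trizol extraction. Depth was 31.6 to 58.3 M counts per library. Replicates were not repeats of 1 library, as pairs differed beyond sampling noise (chi-square per gene 53.5 to 1231).

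Counts were analysed with edgeR 4.0.16 and limma 3.58.1 in R 4.3.3, with DESeq2 1.42.0, and Python 3.11.15 with pandas 2.3.3 and matplotlib 3.10.9 for tables and figures. Alternatives were DESeq2, RLE scaling, no filter, ribosomal RNA left out, fits of the 6 compared libraries, the replicate block, libraries left out and, for comparisons within a sex, the fit of 18 libraries. Genes were kept by filterByExpr (minimum count 10, minimum total 15), scaled by TMM and tested two-sided with 1 coefficient per group, in 9 libraries for comparisons within a sex and in 18 for those between sexes. The scripts were tested on simulated data. Levels are CPM on the scaled library sizes of the 18-library fit, whereas overlap of groups was judged on the library sizes of the fit each comparison comes from, and exon lengths are from the Ensembl annotation BDGP6.54, whose coordinates are those of dm6.

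The members and gene lists were chosen with earlier results of these data known. Lists are described by counts and medians, and no list was tested. In each comparison the text names called members by p and then members whose groups did not overlap by fold change, up to 20. Members named outside that rule, such as those not called, were named after their values were seen.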

Additional observations from a re-analysis of the deposited data

Results flagged for a closer look

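The male-female difference was compared between NINT and F0 by an interaction in the 18-library fit, and for 6 members the sex difference was called as unequal between these lines. The difference was more positive in NINT by 3.32 on the log2 scale for Strn-Mlck, 2.21 for bt, 1.61 for Zasp52, 1.45 for Mlp60A, 1.09 for cher and 0.81 for Chd64 (edgeR adjusted p = 0.0469, 0.0452, 0.0405, 0.0497, 0.0294 and 0.00948). This test was added after the data were seen, and 8.15% of all genes passed it. Without F0 females 1 and 2, INT female 3 and F0 male 1, the values were smaller, at 1.27, 0.67, 0.57, 1.07, 0.58 and 0.73 in the same order. These 4 libraries stood apart in the members' own levels, and leaving them out leaves a lone F0 female. Calls from that fit are therefore not given. There fln went from 2.78 to 5.17 and Lasp from -0.59 to -0.91, whereas Mlc1 went from 2.54 to 1.64 and Mlc2 from 2.82 to 1.61.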

How the results depend on the processing

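Of 1356 values of named members under the alternatives, 1006 kept their direction and side of the threshold, 309 lost a call, 14 gained one and 27 changed sign. Scaling by RLE, no filter on low counts and leaving out ribosomal RNA left every number of called members within 1.5 times its value. RLE moved the median of all genes by 0.11 between INT males and females and by -0.10 in the interaction.

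Members called numbered 2 in INT against NINT females, and 11 with DESeq2, 10 in the 6 compared libraries alone and 13 without F0 females 1 and 2 and INT female 3 (0 to 1 with 1 library left out). In INT against F0 females the 0 became 3 with DESeq2 (7.46%) and 0 to 19 with 1 library left out (0.223% to 32.2%). In NINT against F0 females the 28 became 3 to 30 with 1 library left out (4.35% to 51.1%). Without F0 females 1 and 2 and INT female 3 the median log2 fold change of the members there was -0.89. In INT against NINT males the 0 became 4 with DESeq2 (6.01%) and 0 to 8 with 1 library left out (0% to 26.1%). In INT against F0 males the 2 became 4 with DESeq2 (9.41%) and 0 in the 6 libraries alone (0.303%). With 1 library left out 0 to 3 were called (0.185% to 3.17%). Without F0 males 1 and 2 and NINT males 2 and 3 the median log2 fold change of the members there was 0.09. In NINT against F0 males the 3 became 12 with DESeq2 (20.8%) and 10 in the 6 libraries alone (32.5%). With 1 library left out 1 to 5 were called (0.554% to 6.09%). Without the same 4 males the median log2 fold change of the members was -0.27. Between sexes, the 19 of F0 (61.7%) became 8 to 25 with 1 library left out (52.8% to 62.9%). An alternative chosen after seeing the data left out F0 females 1 and 2 and F0 male 1. The members' median was then -0.28, against 0.19 over all genes. It was 0.24 without F0 females 1 and 2 and INT female 3, against 0.27, and -1.28 without the 4 males, against 0.01. The 9 of INT (69.6%) ranged from 6 to 10 (62.7% to 71.1%). The 8 of NINT (73.5%) became 5 to 7 with 1 library left out (66.1% to 69.5%). Without the 4 males the median there was 0.43, against 0.43 over all genes. The 0 of the interaction became 2 with DESeq2 (3.3%) and 0 to 1 with 1 library left out (0.0324% to 4.55%). The fit of the 18 libraries was also chosen after seeing the data. It called 6 in INT against NINT females (2.63%) and 1 in INT against F0 males (1.59%). The causes were not tested. DESeq2 gave no adjusted p for fln in 6 comparisons.

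Replicate numbers did not pair the samples: same-numbered libraries within a sex correlated at -0.46 to 0.44, above 0.1 in 5 of 18 pairs, and in 9 of 36 cases a library correlated best with its own number. With the replicate block, 0 members were called in INT against NINT females (0.0228% of all genes) and 5 in NINT against F0 females (6.45%). In males 0 were called in INT against F0 (0.419%) and 2 in NINT against F0 (0.99%).

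Log2 fold changes that changed sign were these. Without F0 females 1 and 2 and INT female 3: Mlp60A in INT against F0 females 0.22; males against females in F0, fln 0.65, Mef2 0.038, Mhc 0.41, Mlc1 0.24, Mlp60A 0.35, Prm 0.34, Unc-89 0.45, up 0.28, wupA 0.37 and Zasp52 0.29; and in INT, Mhc 0.092. Without F0 females 1 and 2 and F0 male 1, in F0: Mef2 0.0021, Mlp60A 0.026, Unc-89 0.16 and Zasp52 0.20. Without the 4 males, in INT against F0: Mhc 0.11 and Mlp60A 0.16. With 1 library left out, INT against F0 females gave Scp1 -0.49 to 0.23, INT against F0 males gave Mhc -0.86 to 0.20 and Mlp60A -0.33 to 0.12, males against females in INT gave Mhc -1.43 to 0.042, and in NINT gave fln -0.062 to 1.09 and Scp1 -0.038 to 1.07.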

Other observations

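Msp300, the gene that the tables list without the hyphen of Msp-300, was read after the members were fixed. It was at 1949, 998 and 561 CPM in F0 females, 618, 416 and 663 CPM in INT females and 388, 514 and 309 CPM in NINT females. In males it was at 376, 515 and 575 CPM in F0, 484, 689 and 454 CPM in INT and 382, 501 and 374 CPM in NINT. As for sls, INT male 2 and NINT male 2 were the highest males of their lines and F0 male 1 was the lowest F0 male. F0 female 1 was the highest of the 18 libraries and NINT female 3 the lowest.

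The tubular muscle actin gene Act79B was at 4308, 3582 and 535 CPM in F0 females, 201, 423 and 2166 CPM in INT females and 83.2, 95.7 and 76.7 CPM in NINT females. Act57B, an actin gene of larval and abdominal muscle, was at 2108, 1712 and 732 CPM, 516, 665 and 1524 CPM and 839, 954 and 517 CPM in the same groups. Thus Act79B lay lower in every NINT female than in every INT female, and Act57B overlapped.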
